A study of Mus musculus with 12 samples.

Results

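Polycomb proteins keep developmental genes and the Ink4a locus silent. The 9 genes described here encode parts of these complexes and an enzyme that works against them. Ezh2, Ezh1, Suz12, Eed and Jarid2 belong to Polycomb repressive complex 2 (PRC2), Bmi1, Cbx7 and Cbx8 belong to Polycomb repressive complex 1 (PRC1), and Kdm6b encodes a demethylase of the PRC2 mark. They were chosen by name, as regulators of Ink4a and Hox genes, and not by a cutoff on measured values. Earlier results of these data were known when they were chosen. They are 9 of 21367 named genes on the array, read by 12 of 28330 probes that carry 1 gene name through their RefSeq transcript accession.

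RNA of mouse embryonic fibroblasts, connective tissue cells cultured from E12.5-E13.5 C57BL/6 embryos, was read on 12 Agilent arrays in 1 colour, each holding 1 sample. The 4 groups of 3 arrays differed in the viral vectors the cells carried. Cells of the first group carried shp53, a short hairpin RNA against the mouse p53 mRNA, and cells of the next carried RASV12, an oncogenic form of RAS. Both remaining groups carried both vectors, in the order shp53 then RASV12 (the shp53-first cells, called T cells in the design text) or RASV12 then shp53 (the RASV12-first cells, called TS cells). Every group therefore carried at least 1 vector, and the comparisons have no group without one. The promoters of the vectors, the number of embryos and the sharing of embryos between groups are not given in the sources used here, and the design text calls the 3 arrays of a group independent biological replicates. According to the series title, the study asked how cells transformed after senescence differ from transformed cells that had not been senescent.

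PRC2 places methyl groups on lysine 27 of histone H3, through its catalytic subunit Ezh2 or the related Ezh1, and needs Suz12 and Eed for this activity. PRC1 reads the mark through Cbx proteins and adds ubiquitin to histone H2A, an activity that Bmi1 supports. In cultured fibroblasts the complexes are known for repressing the Ink4a locus, source of the inhibitors p16 and p19Arf, and for holding Hox genes off outside their proper body region.

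The arrays had between 56.56% and 62.45% of their spots well above background. Trp53, the target of the hairpin, read -0.35, -0.75 and -0.58 on the RASV12 arrays and between -4.14 and -3.06 on the 9 arrays of cells with shp53, in log2 units relative to the 75th percentile of each array. All levels below are on this scale, with replicates 1, 2 and 3 in that order, and a level is not compared between probes. In each group 1 array stood apart: shp53 replicate 2, RASV12 replicate 2, shp53-first replicate 1 and RASV12-first replicate 1 correlated with their group's other arrays at r = 0.9722 to 0.9826 across genes, and the remaining pairs at 0.9932 to 0.9974. Fits without these 4 arrays, or with each close pair averaged into 1 value, were added after the data were seen, and the calls they change are given below. All 10 fibroblast markers were well above background on all 12 arrays, and 4 of the 10 were called lower than in shp53 cells in each of the other 3 groups (median differences -0.57 to -0.78). The 8 macrophage and leukocyte markers had a summed linear signal, in multiples of the array's 75th percentile, of 66.2, 11.0 and 66.2 on the shp53 arrays, 9.21 to 20.4 on the RASV12 arrays, 8.93 to 12.4 on the shp53-first arrays and 5.97 to 9.07 on the RASV12-first arrays. Of these markers, Ptprc and Cx3cr1 were well above background on the 3 shp53 arrays and on 0 of the other 9. Of 6 epithelial markers 3 could be tested, and their summed signal was 1.16 to 1.45 on the shp53 arrays and 7.52 to 7.81 on the RASV12 arrays. In both groups with 2 vectors replicate 1 had 9.91 or more and the other arrays 1.63 to 1.89, with Epcam and Cdh1 well above background on no array. Of 6 endothelial markers 4 could be tested, with Tek above background on no array. Their summed signal was 2.96 to 4.53 on the shp53, 1.75 to 3.59 on the RASV12, 1.04 to 2.43 on the shp53-first and 1.14 to 2.24 on the RASV12-first arrays. In RASV12-first against shp53 cells 3 of the 4 tested were called, 2 higher and 1 lower. The part of these marker lists in the differences between groups was not tested. In whole cultures a change in the share of cells that express a gene and a change in its RNA per cell cannot be told apart.

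Of the 9 genes, 8 could be tested, because the only Cbx7 probe was not well above background on any of the 12 arrays. Ezh2 and Suz12 were higher in both groups with 2 vectors than in either group with 1, Jarid2 was higher in RASV12-first cells than in either single-vector group, and Bmi1 was higher in RASV12-first than in RASV12 cells. Calls use limma with p-values adjusted by Benjamini and Hochberg's method over 14441 genes in each comparison, and a gene counts as called below 0.05. In shp53-first against shp53 cells 2 of the 8 genes were called, both higher, where 37.6% of all genes were called (17.3% higher and 20.3% lower). In RASV12-first against shp53 cells 3 were called, all higher, where 45.5% of all genes were called (21.7% higher and 23.8% lower). In RASV12-first against RASV12 cells 4 were called, all higher, where 38.8% of all genes were called (17.2% higher and 21.7% lower), and in shp53-first against RASV12 cells 2 were called, both higher, where 25.4% were called (10.3% higher and 15.1% lower).

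The 2 single-vector groups and the 2 orders differed in none of the 8 genes at the threshold. In RASV12 against shp53 cells 0 were called by limma and 1 (Bmi1) had an unadjusted p under 0.05, where 27.1% of all genes were called (14.3% higher and 12.8% lower). In RASV12-first against shp53-first cells 0 were called by limma and again 1 (Bmi1) had an unadjusted p under 0.05, where 15.8% of all genes were called (7.33% higher and 8.46% lower). Arrays of these 2 groups with the same number deviated together, but so did replicates 2 and 3 across the groups, so the numbers are not shown to be pairs. A fit of both groups with the replicate number as a block, added after the data were seen, called 1 (Jarid2, higher) where 17.3% of all genes were called. Over the 4 groups together, limma's moderated F called 3 of the 8, Ezh2, Suz12 and Bmi1, where 58.4% of all genes were called. Counted in either direction, 2 to 4 of 8 genes is not far from the share of all genes called in the same comparisons, and nothing particular to these genes is read from the counts. Groups did not overlap for 2 of the 8 genes in RASV12 against shp53 cells (51.2% of all genes), 3 in shp53-first against shp53 (53.3%) and 4 in RASV12-first against RASV12 (51.1%). They did not overlap for 5 in RASV12-first against shp53 (56.6%), 2 in shp53-first against RASV12 (43.6%) and 1 between the orders (32.1%). The median difference of the 8 was 0.27 in shp53-first against shp53 cells (0.03 for all genes), 0.33 in RASV12-first against shp53 (0.02), 0.41 in RASV12-first against RASV12 (-0.07) and 0.14 in shp53-first against RASV12 (-0.05). In the comparison of the single vectors it was -0.01 (0.05 for all genes), and between the orders 0.20 (0 for all genes). With the close pairs averaged, 0 of the 8 genes were called in any comparison, and without the 4 arrays that stand apart 3 to 7 were called in each of the 6. In that fit the arrays left out were the ones farthest from their groups, so the spread it uses is the spread within the close pairs. Calls among all genes moved with the setting as well, from 65 to 10435 over all settings and comparisons.

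**Figure D1:**
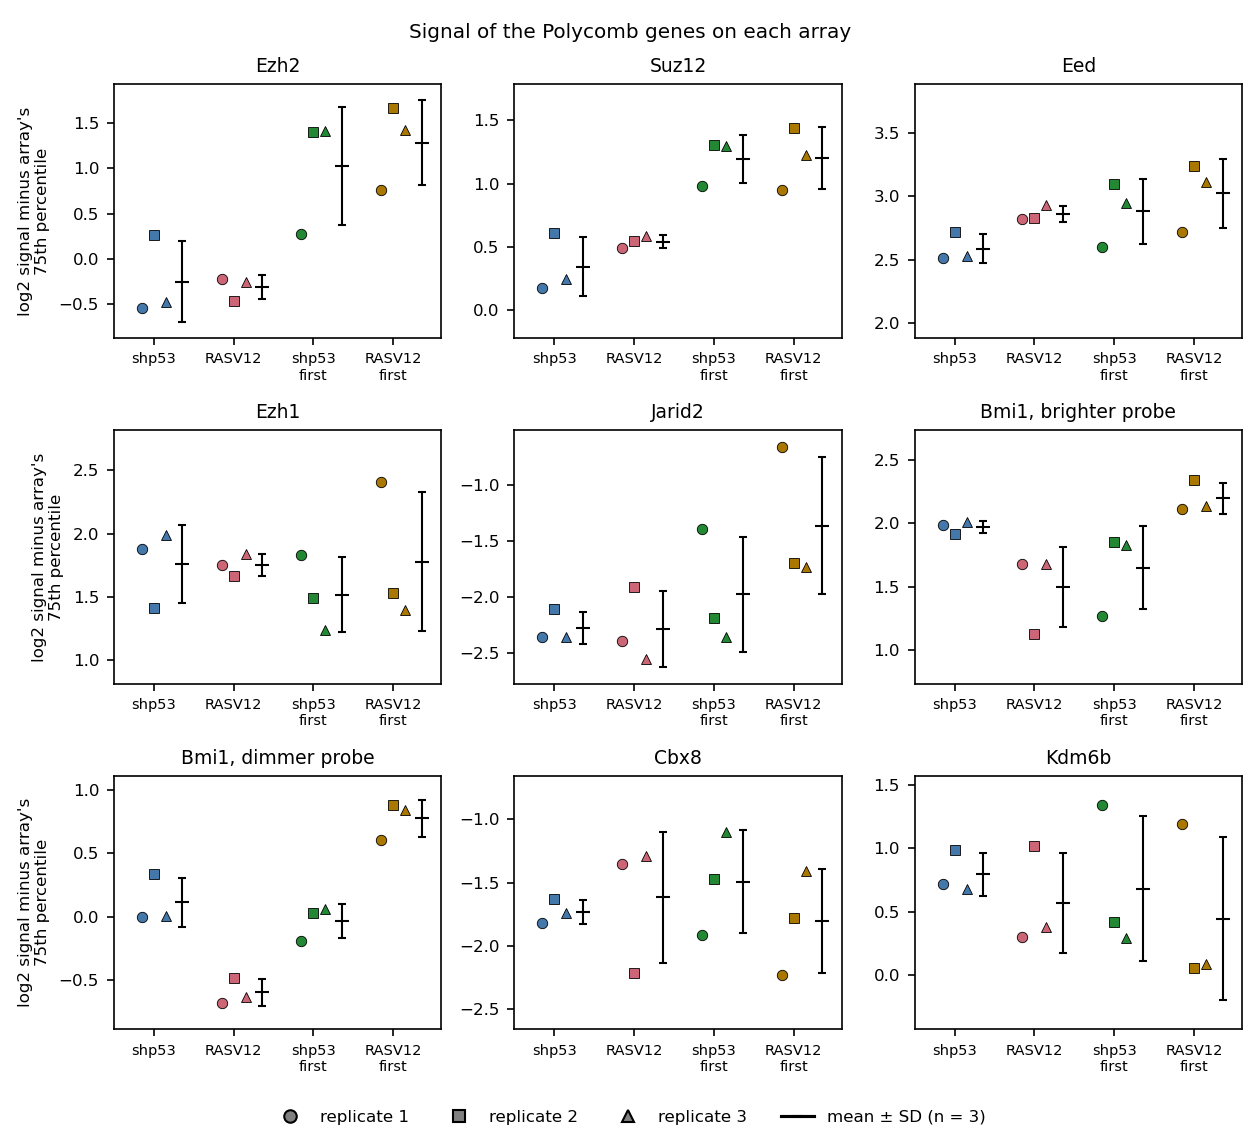
Each panel gives 1 probe on a log2 scale, with 0 at the 75th percentile of the array (y axis). The signal of 8 Polycomb genes is plotted for each array of the 4 groups (x axis), with Bmi1 shown for both of its probes; symbols mark replicates 1, 2 and 3, and the bars give the mean ± SD (n = 3). The 6 Ezh2 readings and the 6 Suz12 readings with both vectors all lie above the 6 readings with 1 vector, while those of Ezh1, Cbx8 and Kdm6b overlap between groups.

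Ezh2, the main methyltransferase of PRC2, differed by -0.06 between the single-vector groups and was higher by 1.28 to 1.59 log2 units in cells with both vectors. It read -0.54, 0.26 and -0.48 in shp53 cells and -0.22, -0.46 and -0.25 in RASV12 cells. In shp53-first cells the readings were 0.27, 1.40 and 1.41, and in RASV12-first cells 0.76, 1.67 and 1.42. Replicate 1 was the lowest array in both groups with 2 vectors, and the lowest of these 6 readings (0.27) lay only just above the highest single-vector reading (0.26).

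From lowest to highest, the group means of Ezh2 were those of RASV12 (-0.31 ± 0.13, SD, n = 3), shp53 (-0.25 ± 0.45), shp53-first (1.03 ± 0.66) and RASV12-first (1.28 ± 0.47). Against shp53 cells Ezh2 was 2.42-fold higher in shp53-first cells (log2 difference 1.28 ± 0.35, SE, adjusted p = 0.016) and 2.89-fold higher in RASV12-first cells (1.53 ± 0.35, adjusted p = 0.00504). Against RASV12 cells it was 2.53-fold higher in shp53-first cells (1.34 ± 0.35, adjusted p = 0.0192) and 3.01-fold higher in RASV12-first cells (1.59 ± 0.35, adjusted p = 0.0052). Of the neighbours in this order, shp53 and shp53-first separated, and the other pairs did not differ beyond their spread: RASV12 minus shp53 was -0.06 (95% interval -0.83 to 0.71) and RASV12-first minus shp53-first was 0.25 (-0.52 to 1.03). The replicate number was also the slide number, and within the 3 slides the difference was 0.81, 1.13 and 1.89 for shp53-first minus shp53 and 0.98, 2.12 and 1.67 for RASV12-first minus RASV12. Within slides it was 1.30, 1.40 and 1.89 for RASV12-first minus shp53, and 0.50, 1.85 and 1.67 for shp53-first minus RASV12. Each of these 12 within-slide differences was above 0. Any matching of the arrays gives that result, since every reading with both vectors lay above every reading with 1, so it adds no separate evidence.

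Both calls of Ezh2 in shp53-first cells depended on single arrays. Against shp53 cells the call was lost without shp53 replicate 1 or 3 or shp53-first replicate 2 or 3 (adjusted p = 0.0597 to 0.0627), with differences of 1.08 to 1.16. Against RASV12 cells it was lost without any 1 of the RASV12 arrays or without shp53-first replicate 2 or 3 (adjusted p = 0.0506 to 0.0723), with differences of 1.14 to 1.38. Its calls in RASV12-first cells held when each array was left out in turn, and were lost with the close pairs averaged (adjusted p = 0.1 against RASV12 and 0.122 against shp53). With normexp background correction all 4 differences lay between 1.04 and 1.22 and none passed (adjusted p = 0.103 to 0.24). All 4 calls held when extreme local backgrounds were replaced before normexp. RASV12 minus shp53 turned to 0.27 in the fit without the 4 arrays that stand apart, with an adjusted p of 0.0497.

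Suz12, which PRC2 needs for stability and activity, was likewise higher with both vectors than with 1, by smaller differences. It read 0.18, 0.61 and 0.25 in shp53 cells and 0.49, 0.55 and 0.59 in RASV12 cells. With both vectors it read 0.98, 1.31 and 1.30 in shp53-first cells and 0.95, 1.44 and 1.23 in RASV12-first cells. All 6 arrays with both vectors lay above all 6 with 1 vector, with 0.61 as the highest single-vector reading and 0.95 as the lowest reading with both. Among all 14441 genes tested, 6.75% had every reading with both vectors above every reading with 1 vector, and of the 8 genes here 2 did, Ezh2 and Suz12.

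Against shp53 cells Suz12 was 1.81-fold higher both in shp53-first cells (0.85 ± 0.17 log2 units, SE, adjusted p = 0.00316) and in RASV12-first cells (0.86 ± 0.17, adjusted p = 0.00224). Against RASV12 cells it was 1.57-fold higher in shp53-first cells (0.65 ± 0.17, adjusted p = 0.0189) and 1.58-fold higher in RASV12-first cells (0.66 ± 0.17, adjusted p = 0.0116). Within slides these differences ranged from 0.46 to 1.05. The orders gave the same mean, 1.20, with a difference of 0.01 (95% interval -0.37 to 0.38), and the single vectors differed by 0.20 (-0.18 to 0.58). The call of shp53-first against RASV12 cells was lost without RASV12 replicate 1 or 3 or shp53-first replicate 2 or 3 (adjusted p = 0.0514 to 0.069) and with arrays centred on their median (adjusted p = 0.0782). The other 3 calls held when each array was left out in turn, and all 4 were lost with the close pairs averaged (adjusted p = 0.0998 to 0.261). With normexp all 4 were lost too: against RASV12 cells the differences were 0.52 in shp53-first (adjusted p = 0.552) and 0.24 in RASV12-first cells (adjusted p = 0.566), and against shp53 cells 0.77 (adjusted p = 0.283) and 0.49 (adjusted p = 0.615). When extreme local backgrounds were replaced before normexp, only the call of shp53-first against RASV12 cells was lost (0.59, adjusted p = 0.0575). RASV12 minus shp53 was called as well in the fit that leaves out the 4 arrays that stand apart (0.33, adjusted p = 0.0237). Over the 12 arrays the readings of Ezh2 and Suz12 correlated at r = 0.96, with group and slide shared by the points.

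Eed, the subunit that binds the methylated histone, differed less than its partners and was not called in any comparison. It read 2.51, 2.72 and 2.53 in shp53 cells, 2.82, 2.83 and 2.93 in RASV12 cells, 2.60, 3.10 and 2.95 in shp53-first cells and 2.72, 3.24 and 3.11 in RASV12-first cells. The 3 shp53 readings were not above any RASV12 or RASV12-first reading, and the other groups overlapped. In RASV12-first minus shp53 cells the difference was 0.43 ± 0.17 (SE, adjusted p = 0.0592). With the replicate number as a block it passed (adjusted p = 0.0307), as it did with quantile scaling (0.0464), with median centring (0.77, adjusted p = 0.0244), without shp53-first replicate 1 (0.0359) and without RASV12-first replicate 1 (0.59, adjusted p = 0.0126). Without the 4 arrays that stand apart Eed was called higher than in shp53 cells in RASV12 (0.35, adjusted p = 0.0142), shp53-first (0.51, adjusted p = 0.00247) and RASV12-first cells (0.65, adjusted p = 0.000658), and higher in RASV12-first than in RASV12 cells (0.30, adjusted p = 0.0221).

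The promoters of these 3 core subunits are shown because Ezh2 and Suz12 were called in the same 4 comparisons and Eed in none of them. Each line gives the 250 bases before the RefSeq transcription start, 5′ to 3′ on the gene's strand, in build GRCm38.p6. The Ezh2 window is chr6:47595031-47595280 on the minus strand, the Suz12 window chr11:79992856-79993105 on the plus strand and the Eed window chr7:89980977-89981226 on the minus strand. Capitals mark every match, on either strand, to any of 4 motif families. The E2F motif was searched as TTCCCGC and also in the form TTGGCGC, in the form written TTCGCGC and in the form written TTGCCGC. The cell-cycle homology region was searched as TTTGAA and in the variant form TTCGAA, the NF-Y box as the letters CCAAT and the AP-1 motif as the letters TGANTCA.
Ezh2: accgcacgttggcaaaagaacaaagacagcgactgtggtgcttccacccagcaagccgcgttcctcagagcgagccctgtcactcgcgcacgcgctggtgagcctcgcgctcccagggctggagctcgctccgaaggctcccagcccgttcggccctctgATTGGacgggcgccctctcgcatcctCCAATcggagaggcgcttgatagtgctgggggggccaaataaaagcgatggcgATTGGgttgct
Suz12: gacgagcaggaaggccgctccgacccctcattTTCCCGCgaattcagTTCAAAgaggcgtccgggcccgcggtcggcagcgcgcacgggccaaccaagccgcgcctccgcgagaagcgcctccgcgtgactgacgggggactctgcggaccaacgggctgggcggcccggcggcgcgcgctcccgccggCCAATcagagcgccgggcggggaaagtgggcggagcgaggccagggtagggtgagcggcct
Eed: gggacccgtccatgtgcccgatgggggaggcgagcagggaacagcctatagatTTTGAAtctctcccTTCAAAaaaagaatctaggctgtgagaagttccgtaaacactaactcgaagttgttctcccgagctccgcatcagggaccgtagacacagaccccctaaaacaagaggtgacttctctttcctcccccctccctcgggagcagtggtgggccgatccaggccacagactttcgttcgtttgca

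Ezh2 held 3 CCAAT matches, at bases -90 to -86, -64 to -60 and -11 to -7 from the start, and none of the other motifs. Suz12 held 1 E2F match (TTCCCGC) at -218 to -212, 1 cell-cycle homology match at -203 to -198 and 1 CCAAT match at -61 to -57. Eed held 2 cell-cycle homology matches, at -197 to -192 and -183 to -178. Of 32851 promoter windows of the same length, 33.8% held CCAAT, 17.1% a cell-cycle homology match, 7.89% an E2F match and 6.75% an AP-1 match. Windows were found for 8 of the 9 genes, and 1 of these 8, Suz12, held an E2F match. A match is a description of letters, and binding was not measured.

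Ezh1, the second methyltransferase of PRC2, which is known for its expression in cells that do not divide, was not called in any comparison. Of its 3 probes, 1 was not well above background on any array. The brightest read 1.88, 1.41 and 1.99 in shp53 cells, 1.75, 1.67 and 1.84 in RASV12 cells, 1.83, 1.49 and 1.24 in shp53-first cells and 2.41, 1.53 and 1.40 in RASV12-first cells. The groups overlapped throughout, and RASV12-first replicate 1 was the highest of the 12 readings. The differences lay between -0.24 and 0.26 with 95% intervals within -0.84 to 0.86, and the dimmer kept probe, which ranged from -1.10 to -0.08, was likewise called in no comparison. Without the 4 arrays that stand apart Ezh1 was called lower in shp53-first than in shp53 (-0.57, adjusted p = 0.0034) and RASV12 cells (-0.43, adjusted p = 0.0141). The same fit called it lower in RASV12-first than in shp53 (-0.47, adjusted p = 0.00698) and RASV12 cells (-0.33, adjusted p = 0.0321), with the sign turned from 0.02 and 0.03 on all arrays.

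Jarid2, a cofactor that helps bring PRC2 to its targets, was higher in RASV12-first cells, and much of the difference came from 1 array. It read -2.36, -2.11 and -2.36 in shp53 cells, -2.40, -1.91 and -2.56 in RASV12 cells, -1.39, -2.19 and -2.36 in shp53-first cells and -0.66, -1.70 and -1.73 in RASV12-first cells. All RASV12-first readings lay above those of both single-vector groups, and replicate 1 was the highest in both groups with 2 vectors. In RASV12-first cells Jarid2 was 1.90-fold higher than in RASV12 cells (0.92 ± 0.33, SE, adjusted p = 0.0487) and 1.88-fold higher than in shp53 cells (0.91 ± 0.33, adjusted p = 0.0449), and within slides the differences were 1.74, 0.21 and 0.83, and 1.70, 0.41 and 0.63. Without RASV12-first replicate 1 they were 0.57 (adjusted p = 0.136) and 0.56 (adjusted p = 0.132). The first call was lost on leaving out 9 of the 12 arrays 1 at a time and the second on leaving out 7 (adjusted p up to 0.147 and 0.132). Without all 4 arrays that stand apart both passed (0.76, adjusted p = 0.000496, and 0.64, adjusted p = 0.000863). RASV12-first minus shp53-first was 0.62 (95% interval -0.12 to 1.35) and did not pass (adjusted p = 0.256). Within slides it was 0.73, 0.49 and 0.63, and it passed in the fit of these 2 groups with the replicate block (adjusted p = 0.0389), and on leaving out all 4 arrays that stand apart (0.56, adjusted p = 0.00367). Both calls against single-vector groups were lost with close pairs averaged (adjusted p = 0.207 and 0.169) and with normexp (1.13, adjusted p = 0.0913, and 0.52, adjusted p = 0.691). Both held when extreme local backgrounds were replaced before normexp. The moderated F over the 4 groups did not pass (adjusted p = 0.0902).

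**Figure D2:**
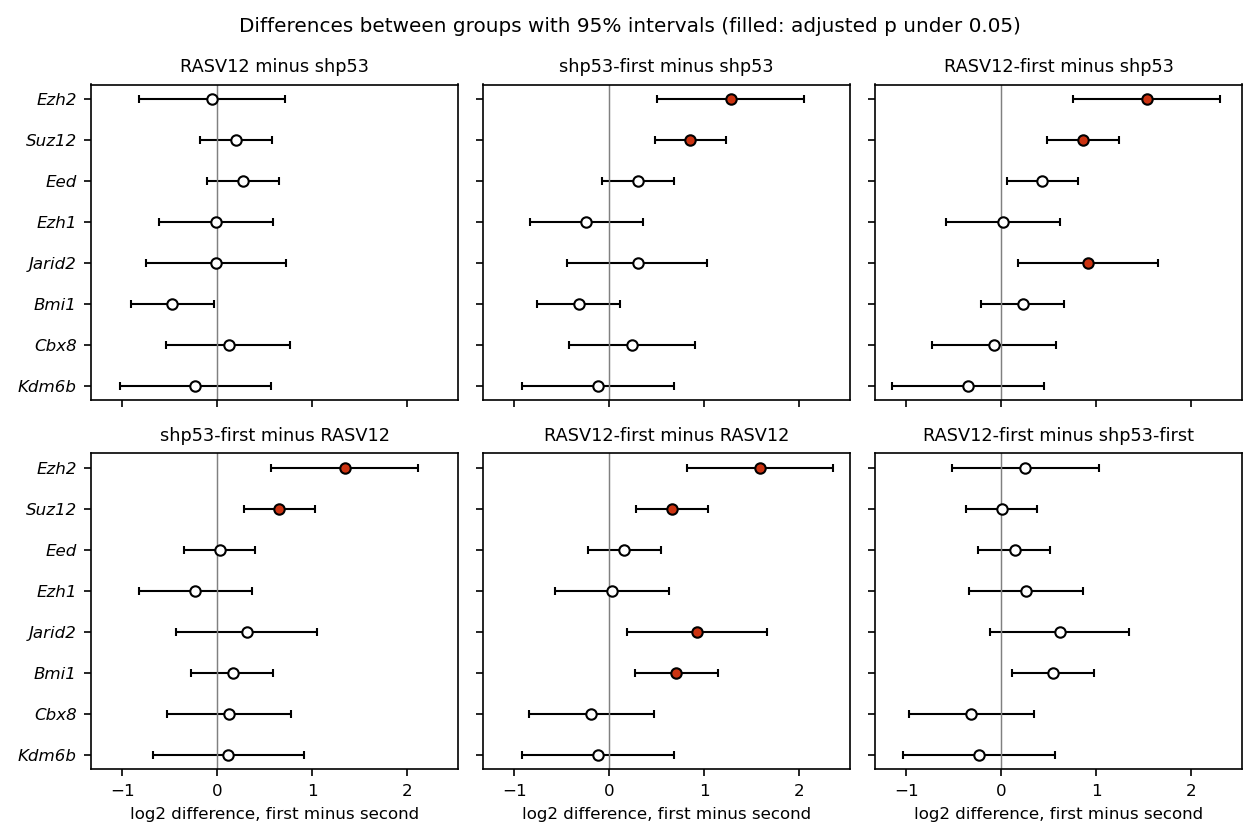
For each of the 6 comparisons the log2 difference (x axis, first group minus second) of the 8 tested Polycomb genes is drawn as a point with its 95% interval from limma, filled where the adjusted p was under 0.05. Filled points lie to the right of 0 in the 4 comparisons of both vectors against 1, and the panels of RASV12 minus shp53 and RASV12-first minus shp53-first have none.

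Bmi1, the PRC1 subunit known for repressing Ink4a, was lowest in RASV12 cells and highest in RASV12-first cells on both of its probes. The brighter probe, which stands for the gene, read 1.99, 1.92 and 2.01 in shp53 cells, 1.68, 1.13 and 1.68 in RASV12 cells, 1.27, 1.85 and 1.83 in shp53-first cells and 2.11, 2.34 and 2.14 in RASV12-first cells. The 3 RASV12-first readings lay above all 9 others on this probe, and shp53-first and RASV12 readings overlapped. RASV12-first cells were 1.63-fold above RASV12 cells (0.70 ± 0.20, SE, adjusted p = 0.0169), and within slides this difference was 0.44, 1.21 and 0.46. The call was lost without RASV12 replicate 2 (0.52, adjusted p = 0.0526) or RASV12-first replicate 2 (0.63, adjusted p = 0.0616), with close pairs averaged (0.77, adjusted p = 0.139) and with normexp, where the difference was 0.13 (adjusted p = 0.829). It held when extreme local backgrounds were replaced before normexp. RASV12 minus shp53 was -0.48 ± 0.20 (adjusted p = 0.0978) and RASV12-first minus shp53-first was 0.55 ± 0.20 (adjusted p = 0.0882, within slides 0.84, 0.49 and 0.31), and neither passed. Without the 4 arrays that stand apart both did (-0.32, adjusted p = 0.0169, and 0.40, adjusted p = 0.00969), as did RASV12-first minus shp53 (0.24, adjusted p = 0.0402).

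The dimmer Bmi1 probe separated more of the groups. It read 0.00, 0.34 and 0.01 in shp53 cells, -0.68, -0.48 and -0.63 in RASV12 cells, -0.19, 0.03 and 0.06 in shp53-first cells and 0.61, 0.88 and 0.84 in RASV12-first cells. RASV12 and RASV12-first readings lay apart from all others, and shp53 and shp53-first readings overlapped. In a fit over all 23896 kept probes it was lower in RASV12 than in shp53 cells (-0.71 ± 0.15, SE, adjusted p = 0.00547). It was higher in RASV12-first than in RASV12 (1.37 ± 0.15, adjusted p = 8.32e-05), shp53 (0.66 ± 0.15, adjusted p = 0.00507) and shp53-first cells (0.81 ± 0.15, adjusted p = 0.00484), and higher in shp53-first than in RASV12 cells (0.57 ± 0.15, adjusted p = 0.0207). With both probes averaged, Bmi1 was called lower in RASV12 than in shp53 cells (-0.60, adjusted p = 0.0102) and higher in RASV12-first than in shp53-first (0.68, adjusted p = 0.00885) and shp53 cells (0.44, adjusted p = 0.0268). The order of the 4 group means was the same on both probes, and which of these comparisons passed depended on the probe.

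Cbx8, a PRC1 subunit that binds the PRC2 mark, was not called in any comparison. It read -1.82, -1.63 and -1.74 in shp53 cells, -1.35, -2.21 and -1.29 in RASV12 cells, -1.91, -1.47 and -1.10 in shp53-first cells and -2.23, -1.78 and -1.41 in RASV12-first cells. All pairs of groups overlapped, with differences of -0.32 to 0.24 and 95% intervals within -0.97 to 0.90. RASV12-first minus shp53-first was -0.32, -0.31 and -0.31 within slides. Leaving out the 4 arrays that stand apart, Cbx8 was called higher than in shp53 cells in RASV12 (0.46, adjusted p = 0.0491) and shp53-first cells (0.50, adjusted p = 0.0339). Cbx7, its relative with the closest known tie to Ink4a repression, was not well above background on any array, so no level is given for it.

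Kdm6b, the demethylase that removes the PRC2 mark and is known for activating Ink4a under RAS signalling, was also called in no comparison. It read 0.72, 0.99 and 0.68 in shp53 cells, 0.30, 1.02 and 0.38 in RASV12 cells, 1.34, 0.42 and 0.29 in shp53-first cells and 1.19, 0.06 and 0.09 in RASV12-first cells. The 4 highest of the 12 readings (1.34, 1.19, 1.02 and 0.99) were those of the 4 arrays that stand apart, 1 from each group, and the groups overlapped in all 6 pairs. The differences lay between -0.35 and 0.11 with an SE of 0.36 each. Without those 4 arrays Kdm6b was called lower in RASV12-first than in shp53 cells (-0.62, adjusted p = 0.000382), shp53-first cells (-0.28, adjusted p = 0.024) and RASV12 cells (-0.26, adjusted p = 0.0207), and lower than in shp53 cells in RASV12 (-0.36, adjusted p = 0.0065) and shp53-first cells (-0.35, adjusted p = 0.00639). That fit was chosen after the data were seen and uses the spread within the close pairs. No difference of Kdm6b is concluded from it. With close pairs averaged Kdm6b was called in no comparison, and on all 12 arrays the moderated F did not pass (adjusted p = 0.809).

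Cell-cycle genes were set beside Ezh2 because its expression is known to rise in dividing cells. The median level of 20 DNA replication genes was 1.08, 1.33 and 1.12 on the shp53 arrays, 0.77, 0.45 and 0.86 on the RASV12 arrays, 1.09, 2.64 and 2.59 on the shp53-first arrays and 1.26, 2.48 and 2.66 on the RASV12-first arrays. That of 23 mitosis genes was 1.46, 1.67 and 1.54, then 0.57, 0.15 and 0.71, then 0.31, 2.61 and 2.55, and 0.87, 2.99 and 3.02, in the same order of groups. Replicates 2 and 3 of both groups with 2 vectors were the highest arrays for both lists and for Ezh2, and replicate 1 of these groups lay far below them. On shp53-first replicate 1 the mitosis genes read below all 3 shp53 arrays while Ezh2 (0.27) was level with the highest shp53 reading (0.26). The shp53 arrays had higher mitosis medians than the RASV12 arrays in all 3 replicates, and Ezh2 differed by -0.06 between these groups.

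Among the replication genes 11 of 20 were called higher and 0 lower in RASV12-first against RASV12 cells, 9 in RASV12-first against shp53, 7 in shp53-first against RASV12 and 4 in shp53-first against shp53 cells, again with 0 lower. Among the mitosis genes 17, 1, 5 and 0 of 23 were called higher in these comparisons and 0 lower. Of all genes, 17.2%, 21.7%, 10.3% and 17.3% were called higher in these comparisons, in the same order. Neither list had a call in RASV12 against shp53 cells (27.1% of all genes called) or between the orders (15.8%). The part of these lists in the Ezh2 and Suz12 differences was not tested.

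**Figure D3:**
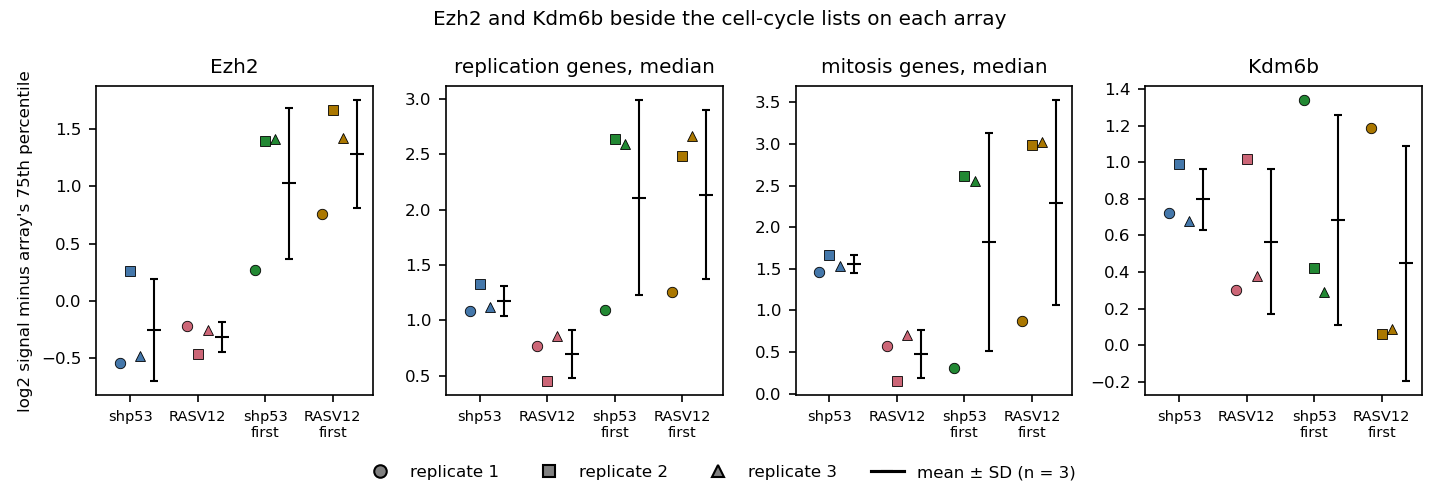
On a log2 scale with 0 at the 75th percentile of the array (y axis), levels are plotted for Ezh2, for the median of 20 replication genes, for the median of 23 mitosis genes and for Kdm6b on each array of the 4 groups (x axis), with mean ± SD bars (n = 3). Replicate 1 of both groups with 2 vectors is lowest of its group for Ezh2 and both lists and highest of its group for Kdm6b.

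Other genes of the Polycomb system and of the opposing trithorax group were described from a list of 42, of which 41 were on the array and all 41 were tested. In shp53-first against shp53 cells 9 of the list were higher and 2 lower, where 37.6% of all genes were called. In RASV12-first against shp53 cells 10 of the list were higher and 3 lower (45.5% of all genes called). In RASV12-first against RASV12 cells 12 were higher and 2 lower (38.8%), and in shp53-first against RASV12 cells 10 and 3 (25.4%). The median difference of the 41 in these comparisons was 0.29, 0.33, 0.33 and 0.25, against 0.03, 0.02, -0.07 and -0.05 for all genes. In RASV12 against shp53 cells 2 were higher and 4 lower (median 0.03), where 27.1% of all genes were called. RASV12-first against shp53-first cells had 2 higher and 1 lower (median 0.18), where 15.8% of all genes were called. Nothing particular to this list is read from the counts. Without the 4 arrays that stand apart 18 to 31 of the list were called, and with close pairs averaged 0 to 3. Over all settings and comparisons, the calls among all genes ranged from 65 to 10435. Their highest count, of 14441, was 6935 between the orders and 8396 to 10435 in the other comparisons. Nothing particular to the list is read from the counts of these fits either.

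Mtf2, an accessory subunit that guides PRC2 to DNA, was higher with both vectors than with 1. Its means were -0.01 in shp53, 0.03 in RASV12, 1.01 in shp53-first and 1.19 in RASV12-first cells. The log2 differences were 1.02 ± 0.16 (SE, adjusted p = 0.000855) for shp53-first and 1.20 ± 0.16 (adjusted p = 0.000232) for RASV12-first against shp53, and 0.98 ± 0.16 (adjusted p = 0.00222) and 1.16 ± 0.16 (adjusted p = 0.000424) against RASV12. All 6 of its readings with both vectors (0.85 or more) exceeded all 6 with 1 vector (0.32 or less). Pcgf5, a PRC1 relative of Bmi1, was called higher in the same 4 comparisons, in RASV12-first cells by 1.40 ± 0.19 against RASV12 (adjusted p = 0.000294) and by 1.11 ± 0.19 against shp53 (adjusted p = 0.00089). Ash2l and Ash1l, of the trithorax group, were each 0.95 higher in RASV12-first than in shp53 cells (adjusted p = 0.000418 and 0.00152), and Asxl2, a cofactor of the enzyme that removes ubiquitin from H2A, was 0.97 higher than in RASV12 cells (adjusted p = 0.00106). Of the 41 genes, 5 (Ash1l, Asxl2, Mtf2, Pcgf2 and Pcgf5) had every reading with both vectors above every reading with 1, and 0 had the reverse. Among all 14441 genes tested, 970 (6.75%) had every reading with both above and 1261 had the reverse.

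Several PRC1 genes and Kmt2c had another pattern, with their lowest mean in RASV12 or shp53-first cells. Cbx6, a Cbx relative, was lower in RASV12 than in shp53 cells by 1.02 log2 units (-1.02 ± 0.12, SE, adjusted p = 0.00022) and higher than in RASV12 cells in shp53-first (0.77 ± 0.12, adjusted p = 0.00195) and RASV12-first cells (1.03 ± 0.12, adjusted p = 0.000166). Rybp, a subunit of variant PRC1, was lower than in shp53 cells in RASV12 (-0.91 ± 0.13, adjusted p = 0.000484) and shp53-first cells (-0.88 ± 0.13, adjusted p = 0.000457) and, by less, in RASV12-first cells (-0.35 ± 0.13, adjusted p = 0.0459). Ring1, a ubiquitin ligase of PRC1, was lower than in shp53 cells in RASV12 (-0.61 ± 0.15, adjusted p = 0.0133), shp53-first (-1.10 ± 0.15, adjusted p = 0.000342) and RASV12-first cells (-0.72 ± 0.15, adjusted p = 0.00331). Its paralog Rnf2 was higher in RASV12-first than in RASV12 cells (0.89 ± 0.19, adjusted p = 0.00403). Kmt2c, a methyltransferase of the trithorax group, was lower in RASV12 than in shp53 cells (-1.06 ± 0.19, adjusted p = 0.00263) and higher in shp53-first than in RASV12 cells (0.86 ± 0.19, adjusted p = 0.0102). Rnf2 was chosen after its values were seen, as the paralog of Ring1.

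Between the orders 3 genes of the list passed, of which the 2 that were higher in RASV12-first cells are described. Rybp was 0.53 ± 0.13 higher (SE, adjusted p = 0.0171) and Ash2l 0.52 ± 0.14 higher (adjusted p = 0.0312). Rybp read 2.30, 2.08 and 1.87 in shp53-first cells and 2.58, 2.62 and 2.65 in RASV12-first cells, with no overlap. Pcgf2, a paralog of Bmi1, was higher in shp53-first than in shp53 cells (0.59 ± 0.13, adjusted p = 0.00617). With the replicate block in a fit of these 2 groups 1 gene of the list was called. The 3 calls became 1 on leaving out replicate 3 of either group, 0 without RASV12-first replicate 2 and 5 without RASV12-first replicate 1.

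**Figure D4:**
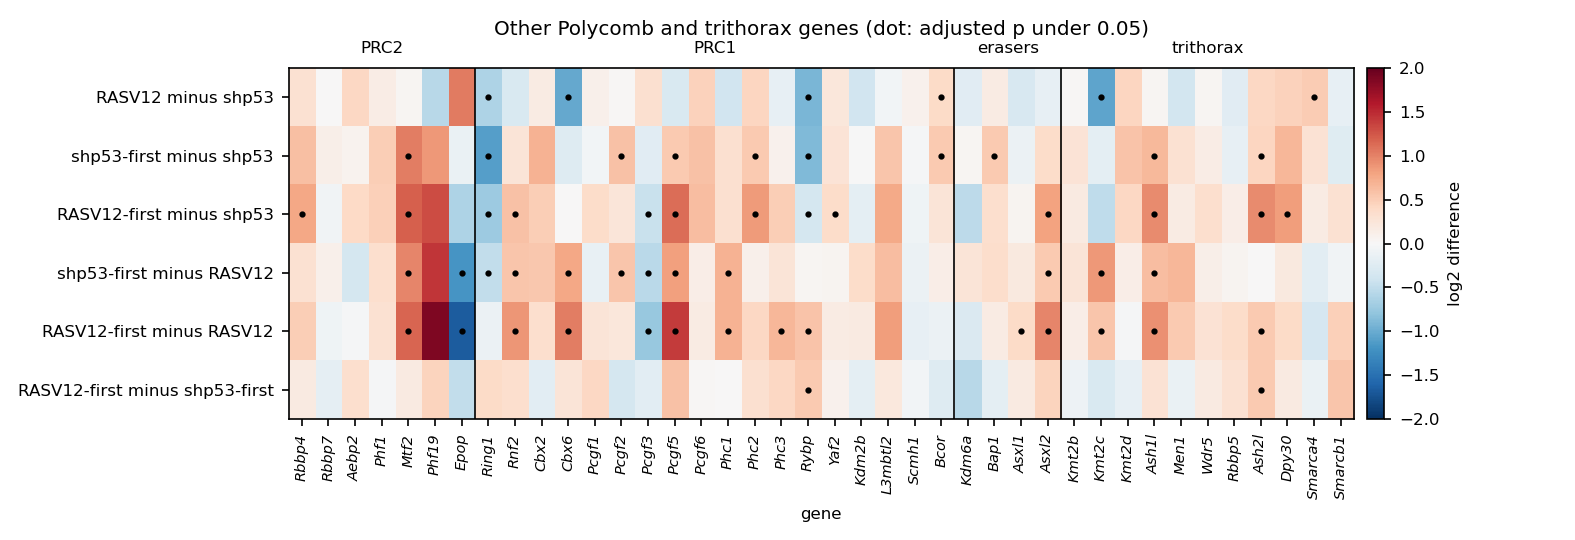
Colours give the log2 difference of the further Polycomb and trithorax genes shown (x axis, grouped by complex) in the 6 comparisons (y axis), and dots mark an adjusted p under 0.05 in limma. Mtf2, Pcgf5 and Ash1l carry dots in all 4 comparisons of both vectors against 1, and Ring1, Cbx6, Rybp and Kmt2c are lower in RASV12 than in shp53 cells.

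Genes known as targets of Polycomb repression, at the Ink4a locus and among the Hox genes, were measured on the same arrays. Cdkn2a and Cdkn2b, at the Ink4a locus, were expressed in every group, with all readings above the percentile that sets the scale. Over all groups Cdkn2b read between 2.59 and 4.25. Cdkn2a, which encodes p16 and p19Arf and whose level cannot be divided between them here, read 5.50, 5.24 and 5.46 in shp53 cells, 5.23, 5.72 and 5.38 in RASV12 cells, 6.11, 5.46 and 5.45 in shp53-first cells and 6.52, 5.74 and 5.67 in RASV12-first cells. It was called in no comparison, and the difference with the smallest p, RASV12-first minus shp53, was 0.58 ± 0.26 (SE, adjusted p = 0.0925). That difference passed with median centring (0.92, adjusted p = 0.00464), and RASV12-first minus RASV12 (0.53) passed with median centring (0.80, adjusted p = 0.0129) and quantile scaling (0.74, adjusted p = 0.0319). On the 8 arrays other than those that stand apart, Cdkn2a was called higher in RASV12-first than in RASV12 (0.40, adjusted p = 0.00418), shp53 (0.23, adjusted p = 0.0358) and shp53-first cells (0.25, adjusted p = 0.0369). Cdkn2b, the neighbouring inhibitor gene, read 3.80 to 3.86 on the 3 shp53 arrays and 3.52, 2.76 and 2.59 on the RASV12-first arrays, and was 1.84-fold lower there (-0.88 ± 0.32, adjusted p = 0.0464). This call was lost on leaving out 8 of the 12 arrays 1 at a time (adjusted p up to 0.153), among them both of RASV12-first replicates 2 and 3. It was also lost with median centring (-0.55, adjusted p = 0.121), normexp (-1.11, adjusted p = 0.449) and close pairs averaged (-0.73, adjusted p = 0.302). Quantile scaling (adjusted p = 0.0614), no filter (0.0707), averaged probes (0.0514) and normexp with extreme backgrounds replaced (0.0586) lost it too. In the fit that leaves out the 4 arrays that stand apart, Cdkn2b was also called lower in shp53-first than in shp53 (-0.99, adjusted p = 0.000166) and RASV12 cells (-0.70, adjusted p = 0.00115), in RASV12-first than in RASV12 cells (-0.89, adjusted p = 3e-04) and in RASV12 than in shp53 cells (-0.29, adjusted p = 0.0369).

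Hox genes moved in both directions in the comparisons of both vectors against 1. Of 35 tested, 11 were higher and 14 lower in RASV12-first against RASV12 cells (38.8% of all genes called). Against shp53 cells 12 were higher and 13 lower (45.5% of all genes called). The 8 HoxB genes were higher in both comparisons, 8 of 8 each time, and HoxD had 5 of 8 lower and 0 higher each time. In shp53-first against shp53 cells 11 were higher and 12 lower (37.6% of all genes called), with HoxC at 6 of 8 lower. Between the orders, RASV12-first cells had 10 Hox genes higher and 15 lower (15.8% of all genes called). RASV12 against shp53 cells had 6 higher and 1 lower (27.1% of all genes called). A relation between the Hox genes and the levels of the Polycomb genes was not tested.

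Patterns most like each Polycomb gene over the 12 arrays were listed by Pearson's r among the other genes tested, as a description, since the arrays share groups, slides and the array that stands apart. For Ezh2 these were Pold1 (r = 0.984), Zfp763 (0.983) and Dnaaf2 (0.979), and for Suz12 Slbp (0.981), Snhg10 (0.978) and Rpp25l (0.977). For Eed they were Exosc6 (0.977), Psma5 (0.970) and Cacybp (0.967), and for Jarid2 Eno2 (0.981), Ptpdc1 (0.975) and Stx11 (0.968). Kdm6b was most like Pik3r4 (0.966), Kdm4b (0.953) and Ctsf (0.949), and Ezh1 most like Dubr (0.931), Cox7a1 (0.927) and Ogfrl1 (0.926). Bmi1 came closest to Cep83 (0.925), Cmc2 (0.917) and Ccdc166 (0.914), and Cbx8 to Limd1 (0.907), Tubb4a (0.896) and Gpn1 (0.889). Among the 8 genes themselves, Eed correlated with Ezh2 at 0.77 and with Suz12 at 0.79, and Kdm6b with Eed and with Cbx8 at -0.72 each.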

How the data were processed

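RNA of 12 samples was labelled with 1 dye from 100 ng each and hybridised to Agilent arrays, per the labels' protocols. The authors deposited, per the file headers, a processed signal intensity for each spot, background-subtracted and detrended within its array by Agilent Feature Extraction (version 11.5.1.1 in the headers, 10.7.3.1 in the submitters' processing notes), together with median pixel intensities and flags (0 or 1) that mark spots as above background, outlying or saturated. A log2 table was deposited too. Set against values rebuilt from the arrays, 99.9% of its values lay within 0.1 of the scaled log2 values described next once these were centred on the shp53 arrays, so its scale, centring and direction are known.

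Here log2 of the processed signal less the array's 75th percentile over non-control spots was averaged over the spots of a probe, without 1717 outlying spot values (0.333%). A probe was kept if some group had it well above background on each of its 3 arrays (23896 of 39429), and the kept probe with the highest mean stood for a gene. Names came from RefSeq transcript accessions (28330 probes with 1 name, 11099 with none). All 12 arrays were fitted in limma 3.58.1 (R 4.3.3) with 1 mean per group and Benjamini-Hochberg adjustment over 14441 genes in each of 6 comparisons. The fit was tested on simulated data. Exact permutation of 3 against 3 arrays gives a two-sided p of 0.1 at the smallest, so p-values rest on limma's model and measure the spread between these arrays, whose number limits the precision.

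The genes and lists were chosen with earlier results of these data known. Named besides the 9 genes are Cdkn2a, Cdkn2b, Trp53 and Hras, up to 4 other Polycomb or trithorax genes per comparison with the smallest adjusted p among those called, and the 3 genes most like each tested gene by r. Hras, whose mouse probe need not detect the transgene, read 2.61 ± 0.24 (SD, n = 3) in RASV12, 2.08 ± 0.10 in shp53, 1.80 ± 0.40 in shp53-first and 1.30 ± 0.45 in RASV12-first cells. RASV12 minus shp53 was not called (limma adjusted p = 0.155), and RASV12-first minus shp53 was called at -0.78 (adjusted p = 0.0294). Against RASV12 cells Hras was called lower in RASV12-first (-1.31, adjusted p = 0.00279) and shp53-first cells (-0.81, adjusted p = 0.0413). Its differences for shp53-first minus shp53 and between the orders were not called. Replicate number and slide coincide. Deviations of arrays with the same number from their group means correlated at -0.33 to 0.557, not all above 0.1, so the numbers were not taken as pairs over the 4 groups. Between the orders all 3 did exceed 0.1 (0.557, 0.408 and 0.256), and a block fit was added for that comparison. Unlike numbers correlated there too: RASV12-first replicate 3 with shp53-first replicate 2 at 0.432, and replicate 2 with replicate 3 at 0.371. The data therefore do not show that the numbers pair the arrays, and the labels do not say so. Alternatives were normexp with an offset of 50 (on median pixel signals, since no mean column is used here), quantile scaling, median centring, no filter, detection required on every array, averaged probes per gene, fits of 2 groups, a replicate block, the deposited log2 values, and fits without each array in turn. Chosen after seeing the data were leaving out the 4 arrays that stand apart, averaging close pairs, a block fit on both orders only, and normexp after 77 local backgrounds, each above 5 times its array's median, were set to that median. Of the genes this rule names, 1 is not reported here. Promoter sequences came from RefSeq, build GRCm38.p6.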

Additional observations from a re-analysis of the deposited data

How the results depend on the processing

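Calls of Ezh2 and Suz12 against single-vector groups kept their sign under every alternative listed, and the number of the 8 Polycomb genes called stayed within 1.5 times the reported count with quantile scaling, with a filter on all arrays and with the authors' log2 table. With the replicate block the counts were 0, 2, 4, 4, 2 and 0 (RASV12 against shp53, shp53-first against shp53, RASV12-first against RASV12, RASV12-first against shp53, shp53-first against RASV12, and RASV12-first against shp53-first, an order kept below). The block added the Eed call, changed no other call of these genes between groups, and left 2 of them called by the moderated F over the 4 groups. In the fit of the orders alone with the block, 1 of the 8 (Jarid2) and 1 of the 41 were called.

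With normexp 0 of the 8 genes and 0 of the 41 further Polycomb and trithorax genes were called in any comparison, and the F over the 4 groups called 0. Of all 14441 genes, normexp called 434, 383, 821, 349, 194 and 65, in the order above. With the 77 extreme local backgrounds replaced first, only the count of the 8 in shp53-first against RASV12 cells moved by over 1.5 times, to 1. Among the 8, the Suz12 call in that comparison was the only call lost in this fit. With close pairs averaged the 8 genes had 0 calls in every comparison and 0 by F, and the 41 had 2, 1, 3, 3, 0 and 0. Leaving out the 4 arrays that stand apart, the 8 had 6, 6, 7, 7, 3 and 3 calls (7 by F) and the 41 had 21, 30, 26, 31, 23 and 18. In that fit Ezh1 turned from 0.03 to -0.33 in RASV12-first against RASV12 cells and from 0.02 to -0.47 against shp53 cells, and Ezh2 from -0.06 to 0.27 in RASV12 against shp53 cells. Why was not tested, beyond the smaller number of arrays and the spread within close pairs that these fits use. Calls among all genes moved with the setting too: over all settings, at most 8449, 9870, 9647, 10435, 8396 and 6935 genes were called, in the order above.

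Median centring moved the median of all genes by 0.25 to 0.34 in comparisons of RASV12-first cells and by 0.09 or less in the others. It left 1 of the 8 called in shp53-first against RASV12 cells and 1 between the orders, and 3, 21, 6 and 7 of the 41 in RASV12 against shp53, RASV12-first against shp53, shp53-first against RASV12 and between the orders. The share of called genes that were higher went from 46.4% to 68.5% between the orders, from 44.2% to 63.6% in RASV12-first against RASV12 and from 47.7% to 68.6% against shp53. With normexp it was 21.5% between the orders and 27.5% in RASV12-first against shp53. Without a filter 7 of the 41 were called in shp53-first against shp53 and 8 against RASV12. With a gene's probes averaged 1 of the 8 (Bmi1) was called in RASV12 against shp53 cells and 1 between the orders. Fits of 2 groups alone called 1 of the 8 in shp53-first against shp53 cells, and 8 and 0 of the 41 in shp53-first against RASV12 cells and between the orders. The cause of these changes was not tested.

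Leaving out each array in turn gave, in the order above, 0 to 1, 1 to 2, 2 to 4, 2 to 4, 0 to 2 and 0 calls among the 8, 2 to 4 by F, and 3 to 9, 6 to 14, 11 to 16, 7 to 17, 6 to 13 and 0 to 5 among the 41. The 0 in shp53-first against RASV12 cells came without shp53-first replicate 2 or 3 or RASV12 replicate 1 or 3. Of all genes, these fits called 2722 to 4712, 3800 to 6277, 4152 to 6283, 4972 to 7391, 2140 to 4534 and 1484 to 2803. Cbx7 and 1 Ezh1 probe, which were not well above background, could not be tested at this signal.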
